A study of Homo sapiens with 6 samples.

Results

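The genes described here encode the nuclear subunits of the oxidative phosphorylation complexes in HEC-1B, a cell line of human endometrioid carcinoma. They were chosen by symbol. Of 23284 gene symbols listed in each library, 89 carry the NDUF, SDH, UQCR, CYC1, COX4 to COX8 or ATP5 names of complexes I to V, and the 83 with a value above 0 in all 6 libraries are the members. By name, 37 belong to complex I, 4 to complex II, 11 to complex III, 12 to complex IV and 19 to complex V. RNA was sequenced from 6 libraries in 3 groups of 2, all of HEC-1B cells sorted on aldehyde dehydrogenase 1A1 (ALDH1A1), a marker used for stem-like cancer cells. Libraries of the first group come from HEC-1B cells labelled with high ALDH potential and as ALDH-high with acceleration (high-potential accelerated). Libraries of the second carry the same ALDH-high accelerated label without the high-potential label (parental accelerated), and those of the third are labelled ALDH-high to low without it (high-to-low). Acceleration refers to cells moving from low to high ALDH1A1. No high-potential high-to-low group is among these samples, so the potential label and the transition cannot be told apart when the first group is set against the third. How the potential label was obtained is not given in the sources used here, and nothing says whether replicates are separate cultures, so each p-value measures only library-to-library spread, which may be technical.

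Oxidative phosphorylation takes place in the inner mitochondrial membrane. Complex I oxidises NADH and complex II oxidises succinate. Both pass electrons by way of ubiquinone to complex III, and cytochrome c carries them on to complex IV, which reduces oxygen. Complexes I, III and IV pump protons, and complex V, the ATP synthase, makes ATP as the protons flow back. Complex II is encoded wholly in the nucleus, while the other complexes also hold subunits encoded by mitochondrial DNA, which were not analysed here. Epithelial carcinoma cells commonly express the ubiquitous forms of these subunits, and several complex IV subunits have second forms typical of heart and skeletal muscle, testis or lung.

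Values are FPKM (fragments scaled by transcript length and by the mapped fragments of the library), and replicate 1 is given before replicate 2 throughout. ALDH1A1 read 352.5 and 303.6 FPKM in high-potential libraries, 26.7 and 316.9 in parental accelerated ones and 28.4 and 9.45 in high-to-low ones. Replicate 1 of the parental accelerated group thus lies inside the range of the high-to-low libraries for the sorted marker, and results that rest on it are also given without it. Relative depth, with high-potential replicate 1 set to 1, ran from 0.807 to 1.07, and the members held 3.17 to 4.07% of the summed FPKM of a library. Of 8 epithelial markers 6 reached 1 FPKM in all 6 libraries. CDH1 did not exceed 0.0868 FPKM in any library, and MUC1 ran from 0.156 to 1.09. The 8 summed to 554.8 to 739.0 FPKM, in which KRT18 (290.6 to 464.4) and PAX8 (123.1 to 188.9) were the largest parts. Markers of other cells stayed low, with a highest single value of 0.920 FPKM for endothelium, 0.414 for fibroblasts and 0.117 for muscle, and 0 of 6 leukocyte markers reached 1 FPKM in all 6 libraries. In bulk RNA, fewer cells of a kind and less RNA per cell cannot be told apart.

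All 83 members passed the filter on low values, 1 FPKM in at least 2 libraries, which kept 12135 genes. FPKM is scaled by length, so levels of genes are set side by side here. Most members have short transcripts, and how well the scaling holds for them was not tested. The median of the members' mean FPKM was 140.0 in complex I, 133.9 in complex II, 120.1 in complex III, 344.3 in complex IV and 215.3 in complex V, against 14.3 over all kept genes. Complex IV thus had the highest median level, also within each library. Complex III had the lowest, though in high-potential replicate 2 complex II stood below it (117.2 against 125.3 FPKM). Single members spread far more widely than the complexes did. ATP5B, the catalytic beta subunit of the ATP synthase, was the most abundant member with a mean of 1585 FPKM. COX7C, a small structural subunit, led complex IV at 884.5 FPKM, and NDUFA1, a small membrane subunit, led complex I at 766.3. UQCRC1, a matrix-facing core protein, led complex III at 324.3 FPKM, and SDHA, the flavoprotein that oxidises succinate, led complex II at 312.6. At the low end stood NDUFV3, an accessory subunit near the NADH site, at 15.8 FPKM, and SDHC, a membrane anchor of complex II, at 21.7.

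**Figure D1:**
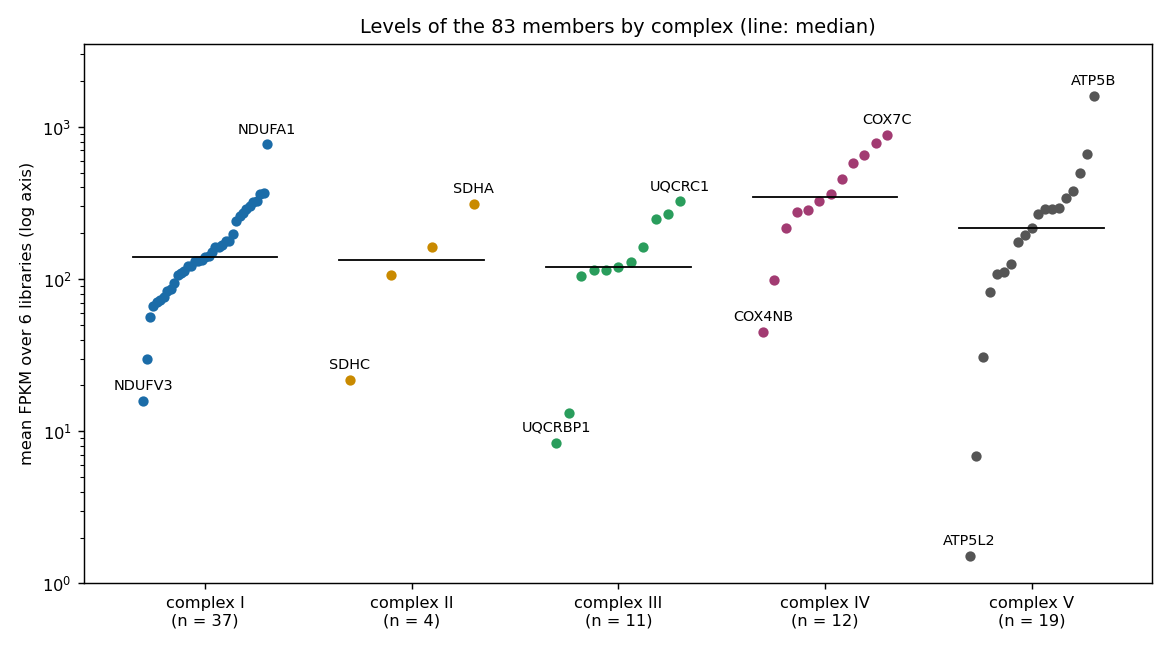
Mean FPKM over the 6 libraries (log axis) of each of the 83 members, 1 point a gene, by complex, with the median as a line. Medians run from 120.1 FPKM in complex III to 344.3 in complex IV, while single members run from 1.52 (ATP5L2) to 1585 (ATP5B).

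Some symbols that match the names are not subunits. COX4NB is an earlier symbol of EMC8, a gene of the endoplasmic reticulum membrane complex, and was the lowest symbol counted under complex IV (45.1 FPKM). UQCRBP1 is a pseudogene of UQCRB (8.42 FPKM, the lowest under complex III), and UQCRHL, ATP5EP2 and ATP5L2 are retrocopies of UQCRH, ATP5E and ATP5L. ATP5S and ATP5SL are associated factors, COX7A2L is a supercomplex factor, and NDUFA4, named for complex I, is now placed in complex IV. A read from a near-identical copy may be counted for either gene, so the values of these copies are uncertain. UQCRHL held 30.7 to 34.1% of the summed UQCRH and UQCRHL signal in each library, and ATP5EP2 held 41.1 to 44.8% of that of ATP5E and ATP5EP2. ATP5L2, the lowest member of all, read 0.461 and 2.86 FPKM in high-potential libraries, 1.32 and 1.52 in parental accelerated ones and 1.15 and 1.81 in high-to-low ones.

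The 6 matching symbols left out for a value of 0 are all tissue forms of complex IV subunits. COX6A2 and COX7A1, the heart and skeletal muscle forms, and COX7B2 are listed at 0 in all 6 libraries. COX4I2, the lung form induced by low oxygen, is listed at 0.191 FPKM in high-potential replicate 1 and at 0 in the other 5. COX6B2, a testis form, did not exceed 0.134 FPKM and COX8C, another testis form, did not exceed 0.844. Their ubiquitous counterparts were all abundant. COX6A1 had a mean of 455.4 FPKM, COX6B1 of 274.0, COX7A2 of 649.9, COX7B of 579.2 and COX8A of 362.9. These cells therefore carried transcripts of the ubiquitous form at every one of these positions, in each group.

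Subunit c of the ATP synthase, which forms the rotating ring in the membrane, is encoded by ATP5G1, ATP5G2 and ATP5G3, whose mature proteins are identical. ATP5G1 made up 41.1 and 46.4% of their summed FPKM in high-potential libraries, 45.5 and 43.7% in parental accelerated ones and 46.3 and 59.7% in high-to-low ones. The share of ATP5G3 was 24.7 and 25.6%, then 16.5 and 23.7%, then 16.0 and 14.9% in the same order. ATP5G3 therefore took a larger share in both high-potential libraries than in the other 4, by a margin in replicate 1 that is small against parental accelerated replicate 2. For ATP5G1 the high-to-low replicates differ by more than the groups do.

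Before the comparisons, the libraries were set against each other. The deviation of each member from its own mean over the 6 libraries was taken on the log2(FPKM + 1) scale, and the median was read for each complex. High-to-low replicate 2 stood above all other libraries in every complex, at 0.21 in complex I, 0.34 in II, 0.30 in III, 0.21 in IV and 0.22 in V. Its partner, high-to-low replicate 1, lay near 0, with medians of 0.02, 0.05, -0.05, 0.01 and -0.06. In high-potential replicate 1 they were -0.06, -0.03, -0.14, -0.09 and -0.16, and in replicate 2 they were -0.02, -0.25, 0.07, -0.04 and 0.14. The parental accelerated libraries gave -0.09, -0.06, -0.10, -0.17 and -0.10 in replicate 1 and -0.11, 0.02, 0.12, 0.05 and 0.06 in replicate 2. Thus 1 library of the reference group was high for all complexes, and complexes III and V differed between replicates of each group by as much as between groups.

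Median scaling of the libraries changed little. It divides each library by the median of its gene ratios to the 6-library geometric mean, and no library moved by more than 0.03 on the log2 scale. After it, high-to-low replicate 2 stood at 0.20, 0.33, 0.29, 0.20 and 0.21 in complexes I to V. Across all kept genes the medians of the libraries as deposited lay between -0.0025 and 0.0139, so the height of that library is one of the members and not of all genes. It held the highest value of 41 of 83 members (49.4%), against 19.0% of all kept genes. Between the high-to-low replicates, replicate 2 was higher for 66 of 83 members (79.5%), where 49.7% of all kept genes were.

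**Figure D2:**
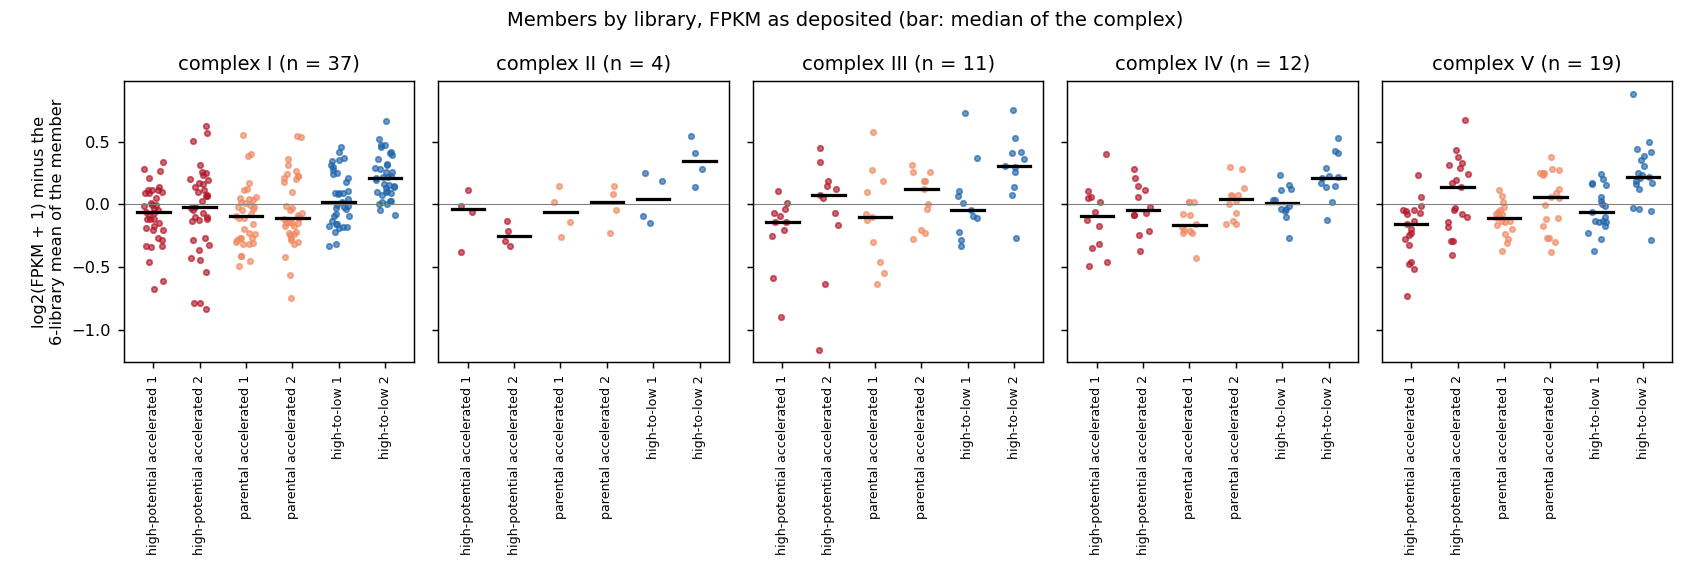
Deviation of each member from its own 6-library mean on the log2(FPKM + 1) scale, by library and complex, 1 point a member, with the median as a bar, FPKM as deposited. High-to-low replicate 2 is highest in all 5 complexes, from 0.21 to 0.34, and its partner lies between -0.06 and 0.05.

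Transcripts of the members are short, with a median of 761 nt against 2456 nt over all kept genes with a length, and 65.1% are under 1000 nt against 10.3%. The 1151 other kept genes under 1000 nt had a median deviation of 0.15 in high-to-low replicate 2 and between -0.05 and 0.02 in the other libraries. Short transcripts outside the respiratory chain were thus also high in that library, by a smaller amount than the members. Small RNA genes took 9.10% of the summed FPKM there, 9.98% in high-potential replicate 1 and 13.4 to 18.7% in the other 4. Their part in the members' differences was not tested. With these genes left out and the rest rescaled, the median high-potential minus high-to-low difference moved from -0.16 to -0.10 in complex I. That of complex II moved from -0.30 to -0.24, and that of all kept genes from -0.01 to 0.05.

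Between high-potential accelerated and high-to-low cells, 1 member of 83 was called at a limma adjusted p under 0.05. It was UQCRC2, a matrix-facing core protein of complex III, and it was lower in high-potential cells. Another 4 members, NDUFS4, NDUFA1, NDUFB10 and UQCRC1, were at 0.43 to 0.51 of the high-to-low level on the log2(FPKM + 1) scale without passing. Of the 12135 genes tested, 0.799% were called at a limma adjusted p (Benjamini-Hochberg) under 0.05 in this comparison, and the 1 member of 83 is close to that share. Before adjustment 13 members had a p under 0.05, all of them lower, where 18.4% of all genes had such a p and 10.8% had one and were lower.

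UQCRC2 read 56.1 and 46.8 FPKM in high-potential cells (51.5 ± 6.57, SD, n = 2), and 158 and 106 in parental accelerated ones. In high-to-low cells it read 176 and 178 (177.0 ± 1.95, SD, n = 2). Both high-potential libraries lay below the other 4, and parental accelerated replicate 2 lay between. On the log2 scale the difference from high-to-low was -1.77 (SE 0.242, limma adjusted p = 0.0438). Without 1 of the 4 libraries compared it stayed between -1.90 and -1.64 with a limma adjusted p of 0.169 to 0.297, so the call needs both libraries of each side. With other pseudocounts, no filter, quantile normalization, a length correction or a term for the label code, the limma adjusted p was 0.0509 to 0.067. Its partner UQCRC1 read 206 and 199.5 FPKM in high-potential libraries, 353 and 387 in parental accelerated ones and 401 and 399 in high-to-low ones. The groups did not overlap, and the log2 difference from high-to-low was -0.98 (SE 0.184, limma adjusted p = 0.0789). The ratio of UQCRC1 to UQCRC2 was 3.68 and 4.26 in high-potential libraries, 2.24 and 3.66 in parental accelerated ones and 2.28 and 2.24 in high-to-low ones.

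NDUFS4, an accessory subunit at the joint of the NADH module of complex I, read 100.4 and 88.6 FPKM in high-potential libraries, 173 and 178 in parental accelerated ones and 196 and 244 in high-to-low ones. The 3 groups were in that order without overlap (high-potential minus high-to-low -1.21, SE 0.197, limma adjusted p = 0.0623). NDUFA1, a subunit of the membrane arm, read 452 and 419 FPKM, then 942 and 819, then 966 and 1001 in the same order of groups. Its high-potential level was thus under 0.45 of the high-to-low level, and the parental accelerated libraries sat just below high-to-low (-1.17, SE 0.212, limma adjusted p = 0.0744). NDUFB10, of the distal membrane arm, read 114.5 and 87.8, then 232 and 133, then 216 and 226 FPKM. The parental accelerated replicates of NDUFB10 lay on either side of the high-to-low pair, and the high-potential pair was lowest (-1.13, SE 0.301, limma adjusted p = 0.133). NDUFAB1, the mitochondrial acyl carrier protein in complex I, whose symbol lies outside the pattern, read 157 and 156, then 289 and 241, then 357 and 373 FPKM (-1.21, SE 0.191, limma adjusted p = 0.0583).

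**Figure D3:**
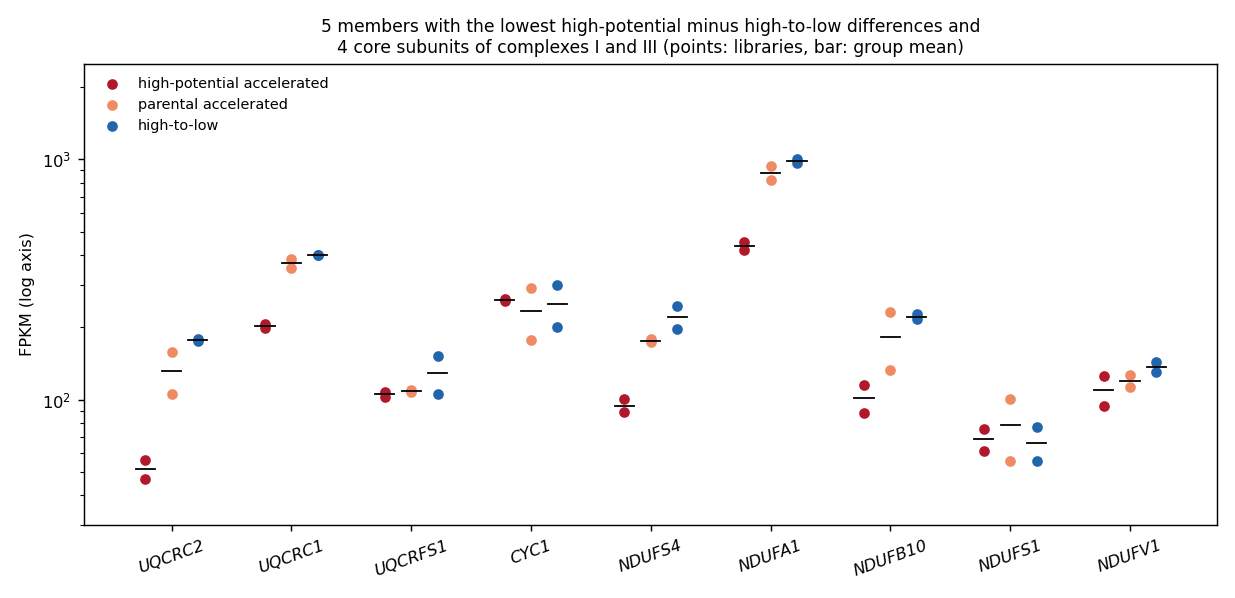
FPKM (log axis) per library of the 5 members with the most negative high-potential minus high-to-low differences and of 4 core subunits of complexes I and III, with group means as bars. In UQCRC2, UQCRC1, NDUFS4, NDUFA1 and NDUFB10, chosen after their values were seen, both high-potential points lie under the other 4 points, while UQCRFS1, CYC1, NDUFS1 and NDUFV1 show overlap of the high-potential with at least 1 other group.

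The stretch of 250 bases before the start of these 5 genes is shown because they are the members with the most negative high-potential minus high-to-low differences, and the letters let their start regions be compared. Sequences are from RefSeq on GRCh38.p14, each 5′ to 3′ in the direction of the gene, and capitals mark matches on either strand to 5 motifs. These were CCAAT (the CCAAT box), TATAAA (the TATA box), GCGCANGCG (part of the site of the factor NRF1), CCGGAAG (an ETS motif, as bound by GABP) and AAGATGGCG (YY1), and none holds another. UQCRC2 (chr16:21953111-21953360, plus strand) holds a reverse match to the CCAAT box at 111 to 107 bases and a TATA box match at 93 to 88 bases before the start. UQCRC1 (chr3:48609647-48609896, minus strand) holds reverse matches to the NRF1 motif at 46 to 38 and at 12 to 4 bases, and NDUFA1 (chrX:119871582-119871831, plus strand) a reverse ETS motif at 47 to 41 bases. NDUFS4 (chr5:53560389-53560638, plus strand) and NDUFB10 (chr16:1959288-1959537, plus strand) hold none of these letters in the window.
UQCRC2: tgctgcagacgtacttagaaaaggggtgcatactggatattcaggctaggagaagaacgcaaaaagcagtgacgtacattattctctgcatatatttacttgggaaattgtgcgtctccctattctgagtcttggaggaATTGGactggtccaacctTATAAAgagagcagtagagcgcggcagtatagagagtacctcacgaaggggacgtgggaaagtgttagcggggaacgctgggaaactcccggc
UQCRC1: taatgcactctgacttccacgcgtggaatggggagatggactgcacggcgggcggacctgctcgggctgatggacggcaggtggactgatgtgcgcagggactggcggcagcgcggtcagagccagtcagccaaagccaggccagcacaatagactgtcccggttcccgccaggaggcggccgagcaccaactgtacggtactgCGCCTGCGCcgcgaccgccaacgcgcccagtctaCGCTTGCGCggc
NDUFA1: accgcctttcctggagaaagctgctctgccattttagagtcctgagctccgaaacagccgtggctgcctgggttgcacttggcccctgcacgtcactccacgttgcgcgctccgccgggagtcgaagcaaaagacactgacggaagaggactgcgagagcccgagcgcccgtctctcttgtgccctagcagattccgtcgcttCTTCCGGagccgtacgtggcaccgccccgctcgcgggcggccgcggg
NDUFS4: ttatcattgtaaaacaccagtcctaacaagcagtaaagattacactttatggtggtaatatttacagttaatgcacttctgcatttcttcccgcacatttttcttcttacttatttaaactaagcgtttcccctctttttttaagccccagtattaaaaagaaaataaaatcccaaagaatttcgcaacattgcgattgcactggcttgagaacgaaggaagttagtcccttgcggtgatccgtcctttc
NDUFB10: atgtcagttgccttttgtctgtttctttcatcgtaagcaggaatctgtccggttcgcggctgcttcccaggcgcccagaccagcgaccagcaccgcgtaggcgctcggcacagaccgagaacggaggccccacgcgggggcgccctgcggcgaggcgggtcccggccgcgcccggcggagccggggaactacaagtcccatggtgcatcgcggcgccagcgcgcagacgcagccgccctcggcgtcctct

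No motif of the search was shared by these 5 windows. Over the 64 members with a RefSeq start region, the NRF1 motif was in 18 (28.1%, against 9.7% of 15843 protein-coding genes) and the ETS motif in 17 (26.6% against 11.8%). The NRF1 letters were shortened by 1 base after counts had been seen, and with the base first searched, a C next to them, 13 members (20.3%) and 7.7% of all held the motif. The CCAAT box was in 20 (31.2% against 34.5%), the TATA box in 6 (9.4% against 9.2%) and the YY1 motif in 1 (1.6% against 0.8%). The median GC content was 60.8% for the members and 62.4% for all. SDHA, ATP5C1 and UQCRFS1 are among those with the NRF1 motif, and COX5B, NDUFS1 and SDHB are among those with the ETS motif. NRF1 itself, a factor known for nuclear respiratory genes, was at 7.55 and 8.49, 7.78 and 8.10, and 7.21 and 7.62 FPKM, and the high-potential pair overlapped both other groups. GABPA, the DNA-binding part of GABP, was at 8.84 and 7.39, 6.95 and 8.91, and 6.03 and 6.82 FPKM.

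Complex I as a whole had a median high-potential minus high-to-low difference of -0.16, with 23 of 37 members below 0, where the median of all genes was -0.01. Libraries did not overlap and were lower for 15 of 37 members, and across the complexes for 34 of 83 (41.0%), against 26.4% of all genes. With high-to-low replicate 2 left out, 35 of 83 members and 4705 of 12135 genes were lower without overlap, so the members stood closer to all genes. With all 6 libraries, only NDUFA10, COX5B, COX6C, ATP5J and ATP5S (5 members, against 24.7% of all genes) were higher without overlap. The core subunit NDUFS1 of complex I overlapped between high-potential and high-to-low libraries. NDUFV1, another core subunit, was lower there without overlap, and its high-potential pair overlapped only the parental accelerated one. NDUFS1, the large iron-sulfur subunit, read 61.3 and 75.3, 55.4 and 101.0, and 55.6 and 77.0 FPKM (0.05, SE 0.329). NDUFV1, which binds NADH, read 126 and 94.1, 126 and 113, and 144 and 130 FPKM (-0.33, SE 0.212). NDUFA4 was the most positive of complex I by name, at 138 and 204, 114 and 118, and 121 and 145 FPKM (0.34, SE 0.241, limma adjusted p = 0.507).

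In complex II all 4 subunits were below 0, with a median of -0.30. SDHA read 234 and 243 FPKM in high-potential libraries, 309.5 and 297 in parental accelerated ones and 347 and 446 in high-to-low ones. The 3 groups were ordered without overlap (-0.72, SE 0.207, limma adjusted p = 0.155). SDHB, the iron-sulfur subunit, read 114 and 96.4, 88.3 and 112, and 98.9 and 129 FPKM, with overlap of all groups (-0.10, SE 0.229). SDHC, at 21.3 and 17.4, 23.8 and 18.2, and 25.7 and 23.8 FPKM, was lower without overlap (-0.35, SE 0.217, limma adjusted p = 0.456). SDHD, the other anchor, read 153 and 138, 144 and 176, and 144 and 212 FPKM (-0.26, SE 0.247). The ratio of SDHA to SDHB was 2.05 and 2.52 in high-potential libraries, 3.504 and 2.65 in parental accelerated ones and 3.51 and 3.46 in high-to-low ones, lowest in the first group.

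Complex III had a median of -0.04, with 6 of 11 below 0, with the core proteins UQCRC2 and UQCRC1 the most negative. UQCRFS1, the Rieske iron-sulfur protein, read 103 and 108, 107 and 110.0, and 106 and 151 FPKM (-0.27, SE 0.22), so only high-to-low replicate 2 stood out. CYC1, the cytochrome c1 subunit, read 262 and 256, 177 and 292, and 200.1 and 299 FPKM (0.08, SE 0.313). UQCRH, the hinge protein, read 237 and 330.0, 179 and 313, and 223 and 322 FPKM, and its retrocopy UQCRHL 117 and 170.8, 80.0 and 142, and 99.0 and 166. In UQCRH and UQCRHL replicate 2 exceeded replicate 1 in every group, and the group differences (0.06 and 0.14) were smaller than that. Apart from UQCRC1, the complex III subunits named here overlapped between high-potential and other libraries, where UQCRC2 did not. The ratio of UQCRC2 to UQCRFS1 was 0.547 and 0.434 in high-potential libraries, 1.47 and 0.961 in parental accelerated ones and 1.66 and 1.18 in high-to-low ones.

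In complex IV, 9 of 12 were below 0 (median -0.19). COX7C read 630.4 and 732, 878 and 882, and 1019 and 1166 FPKM, ordered without overlap (-0.68, SE 0.223, limma adjusted p = 0.191). COX4I1, the ubiquitous form of a regulatory subunit, read 258 and 248, 326 and 395, and 357 and 371 FPKM, with the high-potential pair lowest (-0.52, SE 0.198, limma adjusted p = 0.243). COX5A, a matrix-side subunit, read 271 and 269, 253 and 298, and 280 and 330 FPKM (-0.17, SE 0.201). COX5B, which binds zinc, had the most positive difference of all members. It read 1008 and 928, 566 and 835, and 634 and 698 FPKM, with both high-potential libraries above the other 4 (0.54, SE 0.262, limma adjusted p = 0.34). COX7B was uneven within groups, at 402 and 628, 487 and 597, and 546 and 815 FPKM. COX6A1 read 461 and 428, 432 and 408, and 493 and 510 FPKM, COX8A 331 and 355, 339 and 323, and 351 and 479, and COX7A2 671 and 700, 563 and 619, and 630 and 716.

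COX4NB (EMC8), the neighbour of COX4I1, read 34.7 and 42.01, 39.2 and 54.3, and 45.7 and 54.6 FPKM. The starts of these 2 genes face away from each other with 150 bases between them, in capitals in the 250 bases before COX4I1 (GRCh38.p14, chr16:85799445-85799694, plus strand), printed because the pair shares this stretch.
COX4I1: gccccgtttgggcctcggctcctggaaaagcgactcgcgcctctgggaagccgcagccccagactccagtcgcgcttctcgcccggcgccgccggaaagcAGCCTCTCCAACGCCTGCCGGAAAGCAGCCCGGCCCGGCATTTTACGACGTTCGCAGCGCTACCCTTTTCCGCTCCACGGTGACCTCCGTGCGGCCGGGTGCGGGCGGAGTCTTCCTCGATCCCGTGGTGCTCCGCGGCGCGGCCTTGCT
The ratio of COX4I1 to COX4NB was 7.44 and 5.90 in high-potential libraries, 8.29 and 7.28 in parental accelerated ones and 7.80 and 6.79 in high-to-low ones. COX4NB lay at -0.38 (SE 0.233) and COX4I1 at -0.52 against high-to-low, both lower in both high-potential libraries.

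Complex V had a median of -0.13, with 11 of 19 below 0. ATP5A1, the alpha subunit of the catalytic head, read 305 and 303, 352 and 482, and 376 and 436 FPKM (-0.41, SE 0.232). ATP5B read 1334 and 1481, 1288 and 1900, and 1426 and 2084 FPKM, with replicate 2 higher in each group (-0.29, SE 0.322). ATP5C1, the gamma subunit of the central stalk, read 231 and 219, 281 and 342, and 325 and 370.3 FPKM. Both high-potential libraries of ATP5C1 were below the other 4 (-0.62, SE 0.203, limma adjusted p = 0.19). ATP5G1 had the most negative value of the complex and a wide high-to-low pair, at 176 and 236, 226 and 234, and 254 and 466 FPKM (-0.75, SE 0.325, limma adjusted p = 0.293). ATP5G2 read 147 and 142, 189 and 174, and 207 and 199 FPKM, and ATP5G3 106 and 130.2, 82.0 and 127, and 87.9 and 116. ATP5S, the associated factor, was the most positive, at 7.08 and 7.54, 7.13 and 8.23, and 5.66 and 5.40 FPKM (0.35, SE 0.2, limma adjusted p = 0.414).

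In this comparison the medians of complexes I, II and IV stayed below 0 without any 1 library, and those of III and V did not. Without high-to-low replicate 2 the 5 medians were -0.03, -0.19, -0.01, -0.08 and -0.0020. Then 46 of 83 members lay below 0 (55.4%, against 50.4% of all genes), in place of 53 (63.9%, against 50.8%). Without high-potential replicate 1 complex III stood at 0.02 and complex V at 0.09. With median scaling the medians of complexes I to V were -0.14, -0.29, -0.03, -0.17 and -0.12, and with a length correction -0.04, -0.20, 0.07, -0.08 and -0.07. Quantile normalization gave -0.07, -0.25, 0.03, -0.15 and -0.05. The sign of complex III thus turns with the scaling, and with the length correction the medians of the other 4 complexes are over 1.5 times smaller. Without the symbols that are not subunits, complex III stood at -0.17 and complex V at -0.24. Codes in the label descriptions start alike in 4 libraries and start with another number in replicate 2 of each accelerated group. Within the code of the 4 the medians were -0.19, -0.20, -0.18, -0.20 and -0.24, from 1 high-potential and 2 high-to-low libraries, and the other code holds no high-to-low library.

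**Figure D4:**
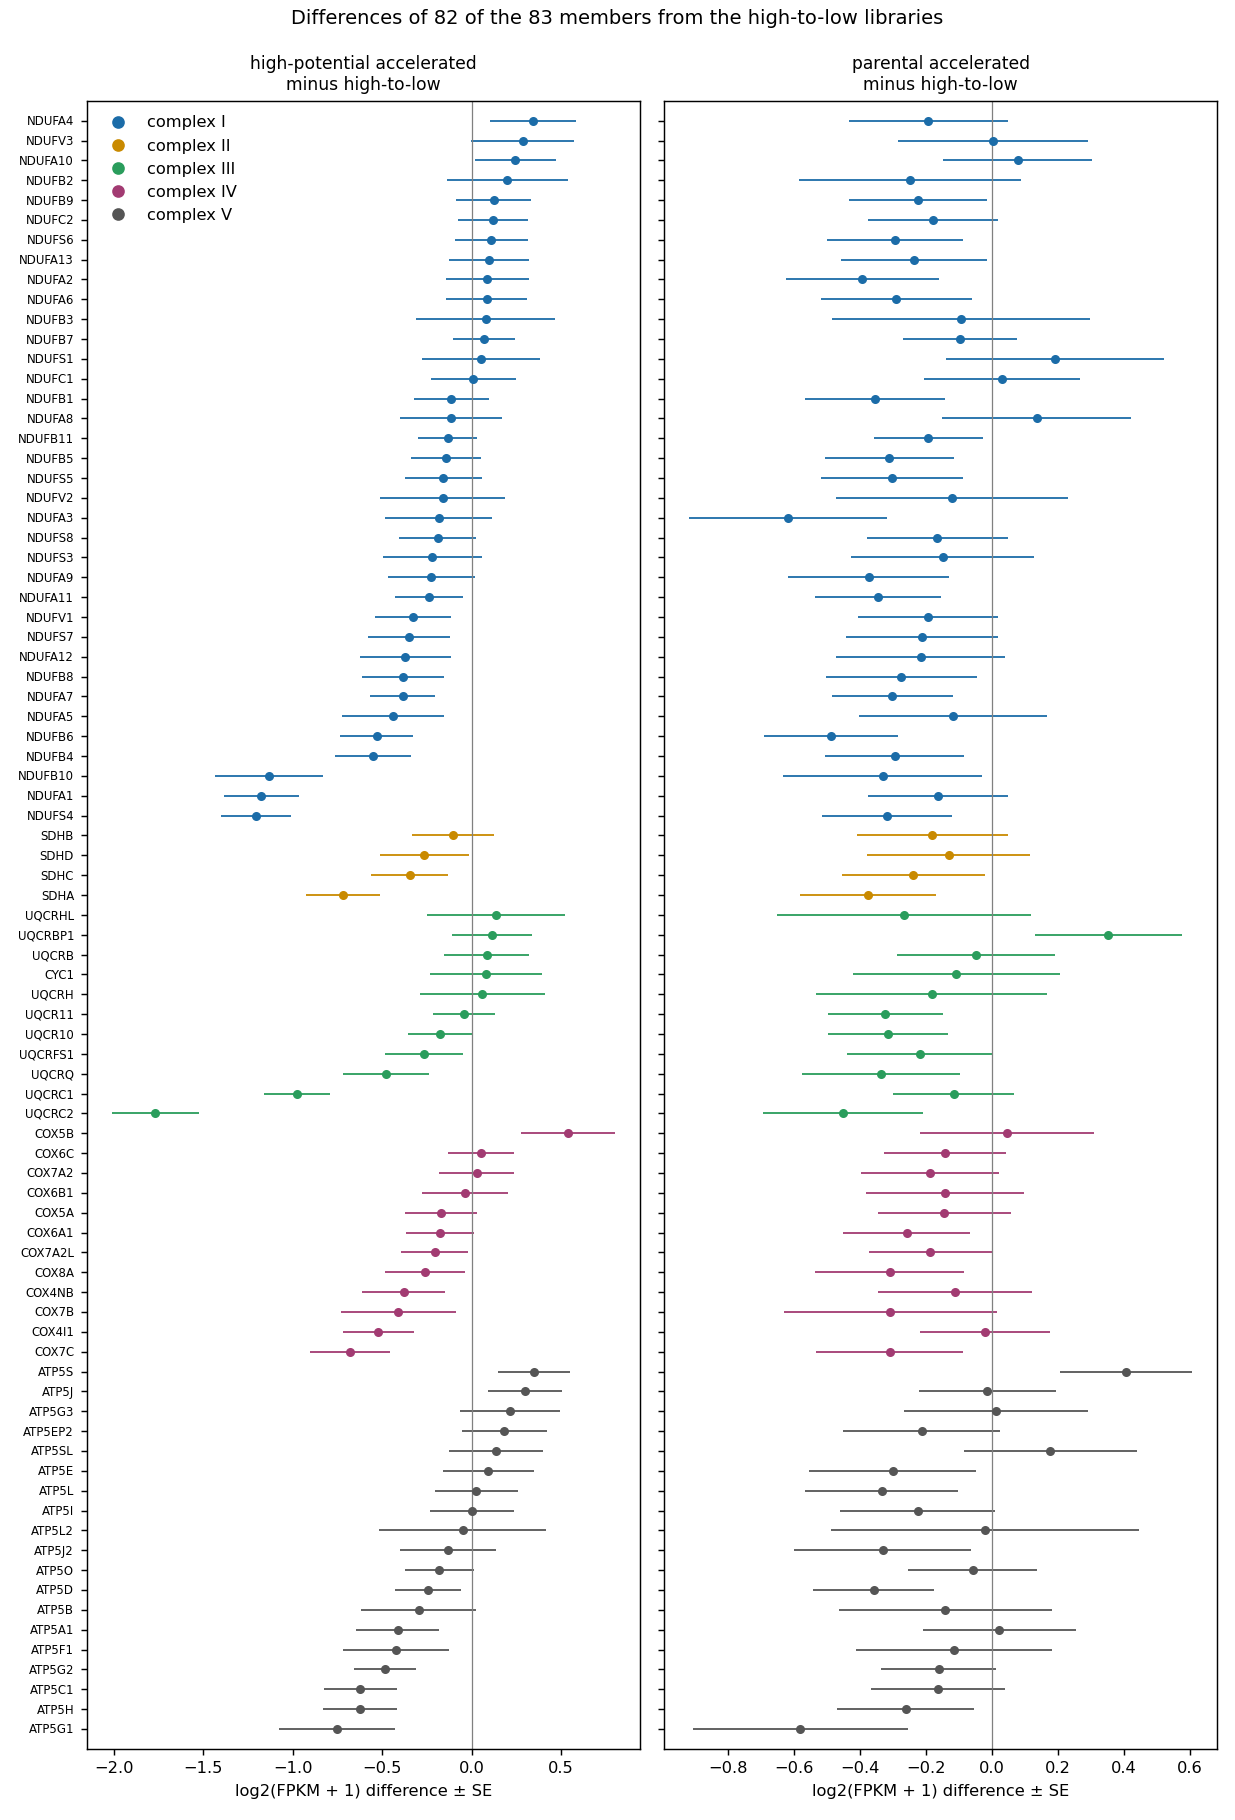
Log2(FPKM + 1) differences of 82 of the 83 members from the high-to-low libraries, with limma standard errors as bars, by complex, for the high-potential (left) and parental accelerated (right) groups, on separate scales. On the left UQCRC2 (-1.77), NDUFS4 (-1.21), NDUFA1 (-1.17), NDUFB10 (-1.13) and UQCRC1 (-0.98) stand apart, and on the right 71 of 82 points lie below 0 with no member under -0.62.

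Between the accelerated groups, which share the transition and differ in the potential label, the complexes had medians near 0. They were 0.06 in complex I, -0.12 in II, 0.13 in III, 0.01 in IV and -0.04 in V, with 43 of 83 members below 0 against 49.6% of all genes. No member passed (0 of 83, where 0.494% of all genes were called at a limma adjusted p under 0.05), and 6 had an unadjusted p under 0.05, all lower, where 14.3% of all genes did and 8.63% did and were lower. Libraries did not overlap for 14 lower (22.3% of all genes) and 17 higher members (21.1% of all genes). These values share the high-potential libraries with the comparison above.

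The 6 lower members with an unadjusted p under 0.05 include the 5 with the most negative differences from high-to-low. Against parental accelerated, UQCRC2 differed by -1.32 (SE 0.242, limma adjusted p = 0.0999), NDUFA1 by -1.01 (SE 0.212, limma adjusted p = 0.116) and NDUFS4 by -0.89 (SE 0.197, limma adjusted p = 0.126). UQCRC1 differed by -0.86 (limma adjusted p = 0.117), NDUFB10 by -0.80 (limma adjusted p = 0.304) and COX4I1, the most negative of complex IV, by -0.50 (limma adjusted p = 0.326). In complex II SDHA was the most negative (-0.34) and SDHB the most positive (0.08), and in complex V ATP5C1 was the most negative (-0.46). On the other side stood NDUFA4 (0.53, SE 0.241, limma adjusted p = 0.387), COX5B (0.49), UQCRHL (0.40) and ATP5EP2 (0.39), which read 477 and 665, 449 and 408, and 512 and 481 FPKM. ATP5EP2 and UQCRHL are copies, so their values are uncertain in the sense given above.

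Within the label code of the 4 libraries, with 1 library a side, the medians of complexes I to V were 0.09, -0.04, 0.03, 0.05 and -0.02, and within the other code they were 0.03, -0.25, 0.0028, 0.06 and 0.01. Without parental accelerated replicate 1, the library with a low ALDH1A1 value, 46 of 83 members lay below 0 (55.4%, against 50.3% of all genes). The medians were then 0.01, -0.19, -0.11, 0.0037 and -0.15, so that of complex III turned sign. The median of complex V turned to 0.11 without high-potential replicate 1 and to 0.03 without parental accelerated replicate 2, and that of complex IV to -0.01 without high-potential replicate 2. In all, both high-potential libraries lay below the other 4 for 14 members (16.9%, where 17.5% of all genes did) and above them for 3, namely ATP5J, COX5B and COX6C (3.6%, against 15.3%).

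Parental accelerated and high-to-low cells carry no high-potential label and differ in the labelled transition, and replicate 2 of the accelerated pair also differs in its label code. The medians were -0.22 in complex I, -0.21 in II, -0.22 in III, -0.16 in IV and -0.16 in V, and 72 of 83 members lay below 0, where 52.9% of all genes did. No member passed (0 of 83, where 0.0165% of all genes were called at a limma adjusted p under 0.05), and 0 had an unadjusted p under 0.05, where 0.972% of all genes did. Libraries were lower without overlap for 38 of 83 members (45.8%, against 12.7% of all genes). Without parental accelerated replicate 1 this held for 45 of 83 members and 4156 of 12135 genes. Without high-to-low replicate 2 it held for 41 of 83 members and 3670 of 12135 genes. With all libraries they were higher without overlap for 2, UQCRBP1 and ATP5S (2.4%, against 11.4% of all genes). Each member had a limma adjusted p of 1.

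The most negative member of each complex was NDUFA3 (-0.62, SE 0.299), a small accessory subunit, in complex I, SDHA (-0.37, SE 0.207) in II, UQCRC2 (-0.45, SE 0.242) in III, COX8A (-0.31, SE 0.225) in IV and ATP5G1 (-0.58, SE 0.325) in V. NDUFA3 read 233 and 181 FPKM in high-potential libraries, 199 and 115 in parental accelerated ones and 241 and 225 in high-to-low ones. Its parental accelerated replicates were far apart, and both were below the high-to-low pair. The most positive of each complex were NDUFS1 (0.19, SE 0.329), SDHD (-0.13), the pseudogene UQCRBP1 (0.35, SE 0.222), COX5B (0.05, SE 0.262) and ATP5S (0.41, SE 0.2), for complexes I to V. UQCRBP1 read 7.10 and 9.18, 10.3 and 9.16, and 8.05 and 6.77 FPKM.

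That shift was larger or smaller with single libraries. Without high-to-low replicate 2, 51 of 83 members lay below 0 (61.4%, against 51.9% of all genes), and the medians of complexes I to V were -0.13, -0.09, 0.04, -0.05 and -0.04. Without high-to-low replicate 1, 77 lay below 0 (92.8%, against 51.5% of all genes) with a median of -0.31, against -0.19 with all libraries. Without parental accelerated replicate 1, 55 lay below 0 (66.3%, against 50.4% of all genes). The medians of complexes I to V were then -0.24, -0.21, -0.05, -0.07 and -0.02, so those of III, IV and V were over 1.5 times smaller. Without parental accelerated replicate 2, which leaves only libraries of 1 label code, 79 lay below 0 (95.2%, against 51.5% of all genes) with a median of -0.24. Median scaling gave -0.21, -0.20, -0.21, -0.16 and -0.15, a length correction -0.11, -0.08, -0.18, -0.05 and -0.07, and quantile normalization -0.10, -0.15, -0.12, -0.06 and -0.05. The medians stayed below 0 under these scalings for all 5 complexes, and for all but complex III without high-to-low replicate 2. Without that library, 26 of 37 complex I and 8 of 12 complex IV members lay below 0. In complexes II, III and V, 2 of 4, 5 of 11 and 10 of 19 did. These last counts show no clear excess over the 51.9% of all genes.

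The mean of the accelerated groups was also set against high-to-low, whose label names a transition in the other direction. That mean includes the high-potential libraries, so the potential label and the transition are mixed in it. This comparison reuses the same libraries. Its medians were -0.18, -0.24, -0.18, -0.21 and -0.15 in complexes I to V, and 70 of 83 members lay below 0, against 52.9% of all genes. No member passed (0 of 83, where 0.0659% of all genes were called at a limma adjusted p under 0.05), 9 had an unadjusted p under 0.05, all lower, where 9.25% of all genes did and 5.42% did and were lower. In all 4 accelerated libraries 20 members were lower (6.73% of all genes) and 1, ATP5S, was higher (6.3% of all genes). UQCRC2 had the lowest value at -1.11 (SE 0.21, limma adjusted p = 0.342), then NDUFS4 at -0.76 (SE 0.171, limma adjusted p = 0.43). ATP5G1 lay at -0.67, SDHA at -0.55 and COX7C at -0.49, and the most positive were ATP5S at 0.38, COX5B at 0.29, UQCRBP1 at 0.23 and NDUFA10 at 0.16. NDUFA10, an accessory subunit of complex I, read 31.8 and 33.4, 23.8 and 35.1, and 26.8 and 27.9 FPKM.

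Other genes of mitochondrial respiration were read from lists of assembly factors, the tricarboxylic acid (TCA) cycle and regulators, and 0 of their kept genes passed limma at an adjusted p under 0.05 in any comparison. Between high-potential and high-to-low cells an unadjusted p under 0.05 was found for 5 of 19 TCA cycle genes, 6 of 14 complex I and 7 of 20 complex IV assembly factors, and for 0 of the 4, 5 and 4 assembly factors of complexes II, III and V, where 18.4% of all genes had one. Of 19 genes of the TCA cycle and pyruvate dehydrogenase, which supply NADH and succinate, 16 were below 0 between high-potential and high-to-low cells (median -0.35), where 50.8% of all genes were. MDH2, malate dehydrogenase, had the highest mean level, at 201 and 176, 170.0 and 207, and 222.5 and 257 FPKM. In the same comparison 9 of 14 complex I assembly factors lay below 0 (median -0.30), 1 of 4 for complex II (0.09), 2 of 5 for complex III (0.09), 12 of 20 for complex IV (-0.06) and 2 of 4 for complex V (-0.01). Genes of mitochondrial DNA replication and transcription lay below 0 in 6 of 13 cases (0.08) and biogenesis regulators in 5 of 9 (-0.05). PPARGC1A and ESRRG, a coactivator and a nuclear receptor known for driving mitochondrial genes, are listed at 0 in all 6 libraries. In parental accelerated against high-to-low cells 17 of 19 TCA cycle genes lay below 0 (median -0.17), and 6 of 13 genes of mitochondrial DNA upkeep did (0.0090), where 52.9% of all genes did. High-to-low replicate 2 stood above replicate 1 for some TCA cycle genes (CS, 82.1 and 128.0 FPKM) and below it for others (IDH2, 170.7 and 147.9). How far the counts of these lists rest on that library was not tested.

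The members are spread over 23 chromosomes, with 11 on chromosome 19. For each of the 81 members with 5 kept genes on either side in RefSeq order, the median difference of those 10 neighbours was taken, a comparison chosen after the values had been seen. Neighbours of the 5 members with the most negative differences between high-potential and high-to-low cells also had medians below 0. Their medians were -0.63 for UQCRC2 (10 of 10 neighbours below 0), -0.78 for NDUFS4 (10 of 10), -0.88 for NDUFA1 (10 of 10), -0.81 for NDUFB10 (8 of 10) and -0.62 for UQCRC1 (9 of 10). The 5th percentile of such medians over 10346 genes was -0.65. COX5B, the member with the most positive difference, had a neighbour median of 0.66 with 0 of 10 below 0, and ATP5G1 had one of 0.07 while it lay itself at -0.75. Across the 81 members, the correlation of a member's difference with its neighbours' median was 0.80, against 0.40 over the 10346 genes. Between the accelerated groups it was 0.81 (0.37 over all), and between parental accelerated and high-to-low 0.55 (0.18 over all). The sign of a member was that of its neighbours' median for 57 of 81 members in the first comparison (70.4%, against 66.2% of the 10346 genes). It was so for 76.5% between the accelerated groups (67.1% over all) and 71.6% between parental accelerated and high-to-low (60.4% over all). By sign the members thus stood closer to all genes than by correlation. These points share libraries, and nearby members share neighbours. The part of expression level in the correlations was not tested.

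**Figure D5:**
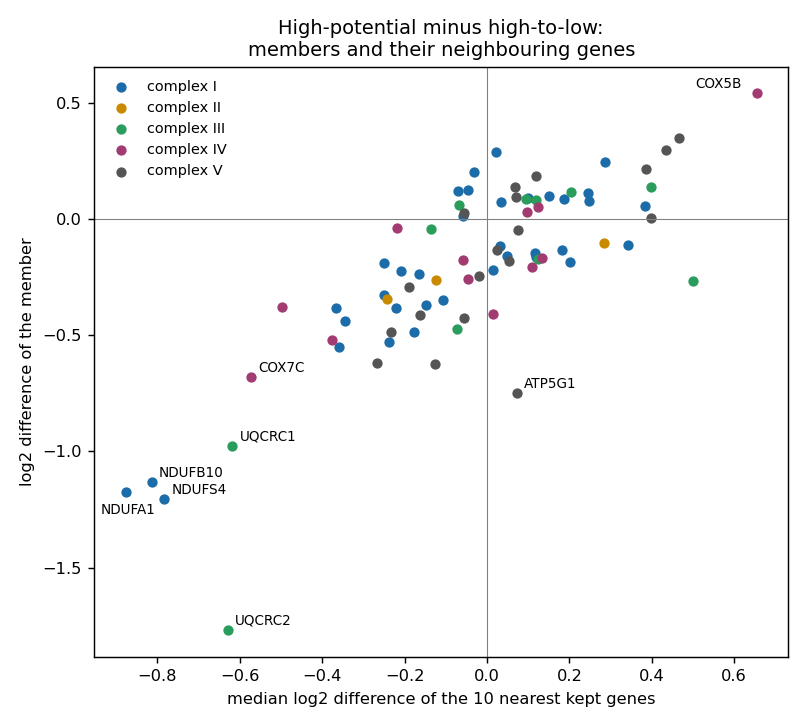
High-potential minus high-to-low log2(FPKM + 1) difference of each of 81 members (vertical) against the median difference of its 10 nearest kept genes (horizontal), coloured by complex. The 5 members with the most negative differences have neighbour medians from -0.88 to -0.62, COX5B lies at the upper right, and ATP5G1 is low beside neighbours near 0.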

How the data were processed

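RNA-seq of 6 libraries (3 groups of 2) was used as deposited. Per the labels' protocols, total RNA (miRNeasy) was made into SMART-Seq v4 cDNA and Nextera libraries. The authors deposited 1 FPKM value per gene symbol and library, made with TopHat2 2.0.13 and Cuffnorm 2.2.1 on hg19 per the submitters' processing notes. Neither annotation nor library scaling is stated (not given in the sources used here). FPKM is not a count, so no count model was used. The strand is not recorded by this kit, so overlapping genes cannot be separated.

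Genes at 1 FPKM or more in at least 2 libraries were kept. Log2(FPKM + 1) values, a scale that understates changes of low genes, were fitted over all 6 libraries in limma 3.58.1 (R 4.3.3) with a variance trend and 3 residual degrees of freedom. Two-sided p-values were adjusted (Benjamini-Hochberg) over the 12135 kept genes and called under 0.05. The 4 comparisons share libraries. Depth relative to 1 library came from ratios of low values. Named members are those called, the extremes of difference per complex and comparison, the extremes of level per complex, core subunits and isoform sets. Values of 1 core subunit, which stays in all counts and medians, and of 1 marker are not reported here. The members and lists were chosen with earlier results of these data known. A length correction used GENCODE v29 transcript lengths (loess, span 0.3), and 82 of 83 members matched RefSeq, of which 64 had a start region. On simulated data for high-potential against high-to-low (12135 genes), shifts were given to genes drawn from those above a floor of mean level. The fit recovered 11.2% of these with a log2 shift of 1, 69.5% of those with 2 and 90% of those with 4. Of 525 calls, 22 fell outside the drawn genes. Members, given a small common shift in some of the simulated sets, were counted as outside. In all, 19 alternatives were planned and others added after seeing the data.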

Additional observations from a re-analysis of the deposited data

How the results depend on the processing

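Alternatives were run for 47 single-member results, of which 39 kept their direction in all of them. High-potential minus high-to-low gave 97 called genes and 1 called member. The genes numbered 54 and 63 with pseudocounts of 0.1 and 0.25, 39 without a filter, 56 with 1 FPKM required in all 6 libraries and 54 with a term for the label code. They numbered 13 to 115 without 1 library. The members called were 0 with either pseudocount, without a filter, with quantile normalization, with the length correction and with the code term, and 0 to 1 without 1 library. Between the accelerated groups (60 genes, 0 members) the genes were 31 at pseudocount 0.1, 38 without a filter, 15 at 1 FPKM in all 6, 39 with only both sides in the fit, 105 with the code term (1 member) and 14 to 38 without 1 library. Parental accelerated minus high-to-low (2 genes) gave 4 and 4 with the pseudocounts, 0 at 1 FPKM in all 6, 0 without small RNA genes, 7 with only both sides and 7 with the code term. Without 1 library it gave 4 to 7. The mean of the accelerated groups (8 genes) gave 3 without a filter, 0 at 1 FPKM in all 6, 1 without small RNA genes, 15 with the code term and 3 to 15 without 1 library.

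The replicate numbers of the labels are not called a pairing by any label. Deviations of same-numbered libraries correlated at 0.187, 0.158 and 0.281 between groups. With the number as a replicate block, 944 of 12135 genes and 8 of 83 members were called in high-potential against high-to-low. Between the accelerated groups 546 of 12135 genes and 4 of 83 members were called, and in the mean comparison 17 genes. Where members were called, their share was close to that of all genes. With median scaling and the block the counts of genes and members were 913 and 6, 522 and 4, and 17 genes. Of the 8 members called, only those with the most negative high-potential minus high-to-low differences are named here, chosen after their values were seen. Their limma adjusted p-values with the block were 0.0129 for UQCRC2, 0.0164 for NDUFA1, 0.0196 for UQCRC1, 0.0198 for NDUFS4 and 0.0396 for NDUFB10.

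Members whose sign turned were these. In high-potential minus high-to-low, SDHB reached 0.0034 with the length correction and ran from -0.29 to 0.086 without 1 library, and UQCRHL reached -0.20 with the code term and ran from -0.23 to 0.51. Between the accelerated groups SDHB ran from -0.093 to 0.25 and UQCRHL from -0.0084 to 0.81. In parental accelerated minus high-to-low the code term gave COX5B -0.064 and NDUFS1 -0.095, and without 1 library COX5B ran from -0.23 to 0.33, NDUFS1 from -0.24 to 0.62 and SDHD from -0.41 to 0.15. In the mean comparison SDHB ran from -0.33 to 0.047. The cause was not tested. Where 1 library was left in a group, it was assumed to vary like the others.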

Other observations

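Subunits and partners of the chain whose symbols lie outside the naming pattern were read as well, and the genes named here were chosen after their values were seen. Of 5 kept, limma called 0 at an adjusted p under 0.05 between high-potential and high-to-low cells, and 2 had an unadjusted p under 0.05. CYCS, cytochrome c itself, stood at 56.98 and 89.9 FPKM in high-potential, 62.6 and 76.2 in parental accelerated and 69.6 and 121.6 in high-to-low cells, with replicate 2 higher in each group. ATPIF1, the inhibitor of ATP synthase reversal, stood at 280.8 and 190.0, 399.2 and 237.9, and 489.0 and 395.7 FPKM, with replicate 1 higher in each group. USMG5 and C14orf2, small membrane subunits of the ATP synthase, were even, at 346.4 to 447.1 and at 278.2 to 354.0 FPKM over the 6 libraries.

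Both high-potential libraries lay below the other 4 for 7 of 14 complex I, 5 of 20 complex IV and 2 of 4 complex V assembly factors. They did so for 0 of 4 and 0 of 5 factors of complexes II and III and for 7 of 19 TCA cycle genes (17.5% of all genes). They lay above the other 4 for 2 of 14, 4 of 20 and 1 of 4 factors of complexes I, IV and V. The same held for 0 of 4 and 0 of 5 factors of complexes II and III and 1 of 19 TCA cycle genes (15.3% of all genes). Against parental accelerated cells, 4 of 4 complex II and 5 of 5 complex III factors had a difference above 0, and none of these genes passed limma. NDUFAF2, an assembly factor of complex I, read 9.96 and 14.6, 23.7 and 27.0, and 26.7 and 38.2 FPKM (high-potential minus high-to-low -1.34, limma adjusted p = 0.0847), and NDUFAF3 read 111.1 and 91.7, 189.9 and 162.6, and 193.8 and 193.4 FPKM (-0.93, limma adjusted p = 0.0882). COX20, a chaperone of a mitochondrially encoded complex IV subunit, read 11.0 and 12.6, 30.2 and 35.4, and 25.3 and 28.8 FPKM (-1.13, limma adjusted p = 0.0692). COX14, another complex IV factor, was at 442.9 and 361.9, 267.3 and 215.7, and 272.1 and 277.1 FPKM, highest in the high-potential libraries (0.54, limma adjusted p = 0.257). SUCLG2, a succinyl-CoA ligase subunit, read 16.4 and 10.1, 37.9 and 34.1, and 43.0 and 33.8 FPKM (-1.49, limma adjusted p = 0.0743). SUCLA2, the alternative subunit to SUCLG2, had both high-potential libraries (64.8 and 73.2 FPKM) above the other 4 (0.41, limma adjusted p = 0.318). The difference between these 2 subunits was not tested.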
